A study of Mus musculus with 4 samples.

Results

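Among the cells of 4 mouse heart grafts profiled by single-cell RNA sequencing, 533 of the 44626 cells kept combined Prg4 with the fibroblast gene Dcn and with Timp1, and are called Prg4 cells here. Their working description was Prg4 Ptx3 stromal cells, with Prg4, Cxcl5, Ptx3 and Dcn given as markers. A cell belonged to them if it had over 200 detected genes, under 20% of its unique molecular identifiers (UMIs, the counted RNA molecules) from mitochondrial genes, at least 5 UMIs each of Prg4, Dcn and Timp1, and 0 UMIs of Ptprc (the leukocyte antigen CD45) and of Cdh5 (endothelial VE-cadherin). They made up 1.19% of the cells kept, with an exact Clopper-Pearson 95% interval of 1.10% to 1.30%. The members were thus chosen by the UMI counts of these 5 genes, whose levels describe the choice and were not tested.

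The study transplanted hearts into the abdomen of C57BL/6J recipients and collected the grafts on day 5. In the allogeneic group (2 grafts) the donor strain was Balb/C, and in the syngeneic group (2 grafts) it was C57BL/6J. Both groups came from male mice of 8 to 10 weeks with no other allele or agent given in the sources. Tissue was digested with collagenase and dispase and red cells were lysed before 10x Genomics 3′ version 3 libraries were made. The deposited matrix holds 53824 cells in 4 libraries, numbered 1 to 4 by a suffix on the cell barcodes, and no source used here pairs a suffix with a graft.

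All cells were therefore taken as 1 pooled sample, values are given by library, and no contrast between the donor strains was made. The 4 libraries held 96020294, 115162601, 138892048 and 166079145 UMIs in all. Cells kept numbered 10322, 13154, 9850 and 11300, with a median of 6090, 5021.5, 9600 and 12649.5 UMIs per cell. Each group had 2 grafts, but no library could be tied to one of them. Intervals therefore cover counting error only, and no p-value is given for any difference.

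Prg4 encodes proteoglycan 4, or lubricin, a secreted glycoprotein that coats and lubricates joint cartilage, tendon and other gliding surfaces. Ptx3 is a secreted pattern-recognition protein that also helps to assemble hyaluronan matrix, and Cxcl5 is a chemokine that draws neutrophils through the receptor CXCR2. Both are inflammatory products that fibroblasts can make. The heart's surface is covered by a mesothelial layer, the epicardium, marked by Msln, Upk3b and keratins. Its fibroblasts, marked by Dcn, Pdgfra and fibrillar collagens, include resting cells of the vessel sheath marked by Pi16 and cells of the valves that make tendon-like matrix such as Comp, Fmod and Thbs4.

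The Prg4 cells were spread unevenly over the libraries, with 30, 344, 105 and 54 cells in libraries 1 to 4. These were 0.291%, 2.62%, 1.07% and 0.478% of the cells kept in each library. Library 2 thus supplied 64.5% of them. Of cells that met the same rule at any Prg4 count, 321, 470, 910 and 200 were found, and the share with at least 5 Prg4 UMIs was 9.35%, 73.2%, 11.5% and 27.0% in libraries 1 to 4. The rule used these counts, so the shares are a description. Prg4 UMIs were also common outside these cells in library 2, where 42.2% of the Cdh5 cells described below had one, against 14.6, 19.8 and 2.65% in libraries 1, 3 and 4.

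**Figure D1:**
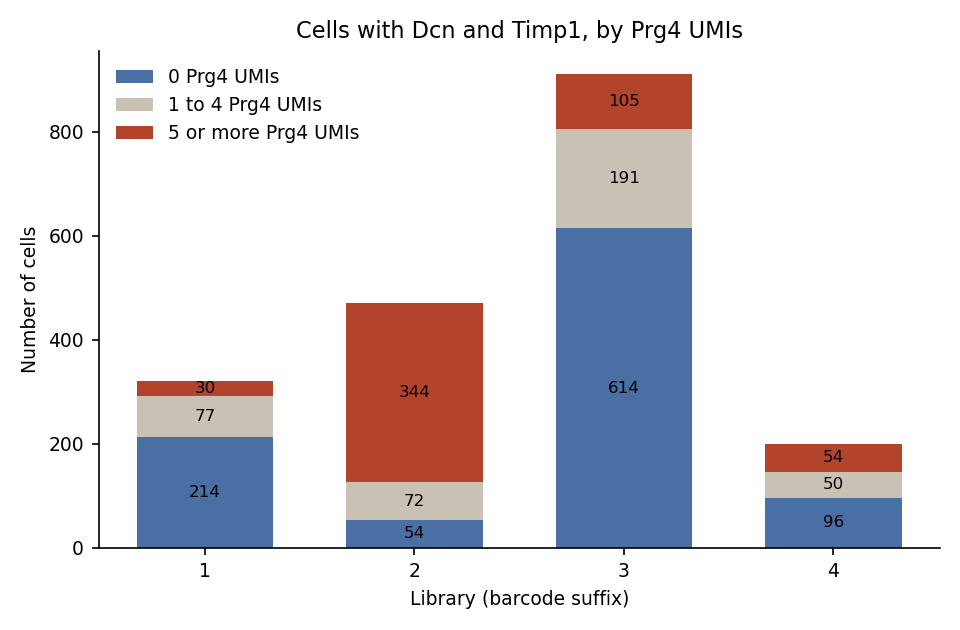
Number of cells (vertical axis) with at least 5 UMIs of Dcn and of Timp1 and none of Ptprc or Cdh5 in each library (horizontal axis), divided by their Prg4 UMIs into 0, 1 to 4, and 5 or more. In library 2 the largest section is the 344 Prg4 cells, while in libraries 1, 3 and 4 the cells with 0 Prg4 UMIs are the largest section.

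At least 5 Prg4 UMIs were found in 1703 cells kept, of which 1314 had no Ptprc and 687 neither Ptprc nor Cdh5. A Dcn count of 5 or more was met by 668 of those, and the Timp1 threshold by the final 533. The Prg4 cells were deep, with a median of 25225 UMIs, a lowest of 726 and a highest of 98654, and a median of 4820 genes. Of them 3 were among the 5% of cells marked as likely doublets. In all, 308 of 53516 barcode sequences occurred in more than 1 library, 7 Prg4 cells carried one, and no 2 Prg4 cells shared one.

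Prg4 (ENSMUSG00000006014, chromosome 1, 150449412 to 150466165, minus strand; GRCm38, GENCODE M21 annotation) had a level of 1422, 8139.7, 1316 and 607 counts per 1000000 non-mitochondrial UMIs (CPM) in the Prg4 cells of libraries 1 to 4. The median cell held 9.5, 72.5, 10 and 13 Prg4 UMIs, and the highest cell, in library 2, held 2702. Cells with at least 3 Cdh5 UMIs, endothelial cells taken as a background, showed a Prg4 UMI in 14.6, 42.2, 19.8 and 2.65% of cells at 27.8, 281, 36.5 and 3.42 CPM. Their median depth was 6695, 7780, 9119 and 12908.5 UMIs against 20786.5, 25610.5, 23868 and 32767 in the Prg4 cells. In cells with at least 3 Ptprc UMIs the Prg4 share was 4.11, 32.1, 5.38 and 1.75%. The background of Prg4 outside these cells was thus high in library 2, where the 37 Prg4 cells with 5 to 9 UMIs had 374 CPM of Prg4, beside the 281 CPM of the Cdh5 cells and the 265 CPM of the Ptprc cells. How much free RNA added to the counts was not tested, and 399 of the 533 cells also had at least 500 CPM of Prg4.

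Dcn, the collagen-binding proteoglycan decorin (ENSMUSG00000019929, chromosome 10, 97479609 to 97518143, plus strand), stood at 19191, 7365, 12022 and 8950.3 CPM in libraries 1 to 4. Timp1, an inhibitor of matrix metalloproteinases (ENSMUSG00000001131, chromosome X, 20870166 to 20874735, plus strand), stood at 1058, 6721, 3232 and 12014 CPM. Both sat in the rule, and Timp1 varied the more between libraries. Just inside the Prg4 threshold were 7, 8, 14 and 5 cells with exactly 5 UMIs, and just outside it 15, 11, 20 and 7 cells with exactly 4. Cxcl5 was at 132, 6565, 51.6 and 102 CPM inside and 154, 3608, 17.8 and 1333 CPM outside, in libraries 1 to 4. Ptx3 was at 90.5, 1653, 191 and 744 CPM inside and 188, 1241, 5.93 and 1065 CPM outside. The order of inside and outside thus varied by library.

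Fibroblast genes were present in nearly all Prg4 cells. Of 13 fibroblast markers, the list without the rule gene Dcn, the median cell held 12, and 531 of 533 cells (99.6%) held at least 3, as did 977 of 978 cells (99.9%) of the Dcn Timp1 cells without Prg4 described below. The median Cdh5 cell, which was shallower, held 4. At least 3 were also held by 65.4% of Cdh5 cells and 48.3% of cells with at least 3 Ptprc UMIs. In library 3 these shares were 93.3% and 96.9%, so holding 3 of the genes set few cells apart there. The summed level of these 13 was 68226, 17956, 66117 and 35618 CPM in libraries 1 to 4, against 5505, 1871, 5541 and 1272 CPM in the Cdh5 cells and 3375, 809.7, 4053 and 1198 CPM in cells with at least 3 Ptprc UMIs. Among the Prg4 cells, Mgp, an inhibitor of matrix calcification, held the most UMIs of the list over all libraries. Mgp was at 21844, 5435, 25999.9 and 14027 CPM. Gsn, the actin-severing protein gelsolin, was at 17645, 7976, 5446 and 2010.5 CPM and Lum, the proteoglycan lumican, at 2479, 259, 2062 and 620.3 CPM. Pdgfra, the platelet-derived growth factor receptor of fibroblasts, was found in 30, 304, 89 and 47 cells of the 30, 344, 105 and 54, and Tcf21, a transcription factor of cardiac fibroblasts, in 23, 228, 70 and 33. In the Cdh5 cells the shares were 9.99, 8.24, 11.1 and 3.39% for Pdgfra and 7.23, 5.47, 7.77 and 1.62% for Tcf21. With cells thinned to 2000 UMIs, Pdgfra was in 36.7, 39.9, 35.2 and 44.4% of Prg4 cells and 3.46, 2.67, 3.16 and 0.599% of Cdh5 cells. Both genes were picked after their values were seen. The summed fibroblast genes that the rule did not use were thus above the Cdh5 and Ptprc cells in every library.

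Few mesothelial and epicardial genes were found per cell outside a group of 6 cells. Of 18 such markers, 6 Prg4 cells (1 in library 1, 4 in library 3 and 1 in library 4) held 12 to 18, while the other 527 held at most 4. In library 2 no cell of 344 held 9 or more, which allows a share of up to 0.872%. Of these 6 cells 2 were marked as likely doublets. At least 9 of the 18 were held by 1.13% of all Prg4 cells. The share was 1.33% (13 of 978) in the Dcn Timp1 cells without Prg4 described below. It was 1.03% (4 of 390) in such cells with 1 to 4 Prg4 UMIs. Cells with many mesothelial genes were thus not particular to the Prg4 cells. In the 6 cells Msln, the surface protein mesothelin, was at 949 CPM, Upk3b, a uroplakin, at 603 CPM and the keratin gene Krt18 at 857 CPM. Slpi, a protease inhibitor, was at 4717 CPM and Wt1, a transcription factor of the epicardium, at 319 CPM.

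The same 6 cells differed from the other Prg4 cells in several genes. Their Ptx3 was at 6.78 CPM from 2 UMIs, Comp had 1 UMI and Pi16 none. The 6 cells held 5 to 21 Prg4 UMIs, and the median Prg4 cell of libraries 1, 3 and 4 held 9.5, 10 and 13. They were deep, however, with a median of 45624 UMIs. Per depth, their Prg4 was at 703, 174 and 185 CPM in libraries 1, 3 and 4. The other Prg4 cells there had 1453, 1422 and 618 CPM, and the median Prg4 cell 522, 478 and 519 CPM. Prg4 was thus low for their depth in libraries 3 and 4. Cxcl5 went the other way from Ptx3 within library 3, where 2 of the 4 cells held 61 of that library's 149 Cxcl5 UMIs, for 271 CPM in the 4 cells against 36.3 CPM in the other 101. In the other 527 cells, Msln had 1 UMI in all and Upk3b, Krt19, Krt18, Krt8, Lrrn4 and Nkain4 had 0, where 3 UMIs would be 0.221 CPM. At least 3 of the 18 genes were found in 69 of these 527 cells, or 13.1% (10.3% to 16.3%). The genes of the 6 cells other than Msln, Upk3b, Krt18 and Slpi were picked after their values were seen.

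Some genes of the list had UMIs in many Prg4 cells. Aldh1a2, a retinoic acid synthase that the epicardium makes, was at 314 CPM in the 527 cells, and had a UMI in 53.3, 71.5, 44.8 and 44.4% of all Prg4 cells of libraries 1 to 4 against 1.46, 7.55, 4.8 and 2.65% of the shallower Cdh5 cells. With cells thinned to 2000 UMIs these shares were 13.3, 37.9, 6.67 and 16.7% and 0.406, 2.49, 1.12 and 0.599%. Tbx18, a transcription factor of the epicardium, was at 24.4 CPM in the 527 cells. It had a UMI in 46.7, 32.3, 47.6 and 53.7% of all Prg4 cells against 5.18, 3.33, 4.9 and 1.92% of the shallower Cdh5 cells. Against the Dcn Timp1 cells without Prg4 described below, the list's median log2 ratio was 0.23, -0.03 and -0.21 in libraries 2, 3 and 4. There 4, 3 and 4 of its genes were counted. None was 2-fold higher, and 1 was lower in library 4, where 0.437% of all genes were.

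Slpi and Wt1 were not found in a larger share of Prg4 cells than of Cdh5 cells in library 2. There 20.6% of Prg4 cells had a Slpi UMI and 27% of Cdh5 cells, and library 2 held 71 of the 78 cells with Slpi among the 527. Wt1 had a UMI in 10, 7.27, 7.62 and 16.7% of Prg4 cells of libraries 1 to 4, below the 45.6, 54.4, 52.6 and 41.3% of Cdh5 cells. The Cdh5 cells were shallower, so they are not used as a background of free RNA for Wt1.

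Msln Upk3b cells with fewer than 5 Prg4 UMIs, 19 in all with none in library 2, gave a reference. Their Prg4 level was limited by that choice. Their Ptx3 was at 1.93 CPM and their Pi16 at 1.93 CPM. Igfbp6, an insulin-like growth factor binding protein, was at 2004 CPM in them.

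**Figure D2:**
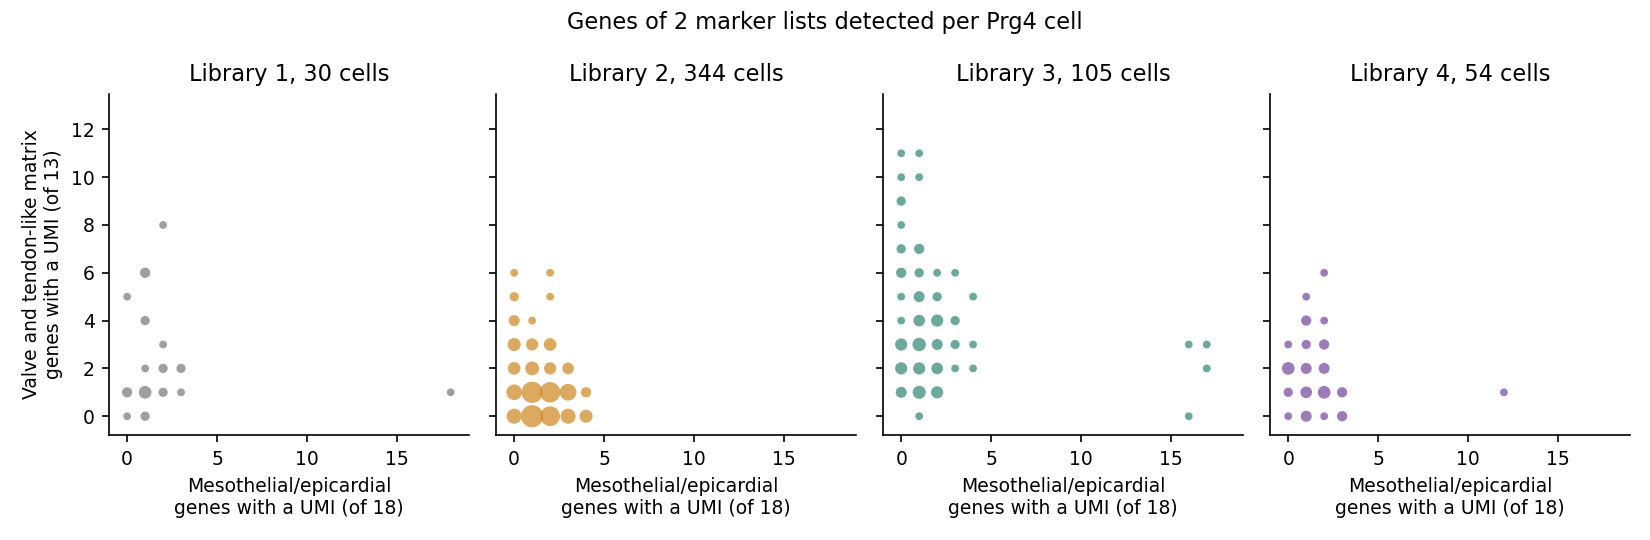
For each Prg4 cell, the number of 18 mesothelial and epicardial genes (horizontal axis) and of 13 valve and tendon-like matrix genes (vertical axis) with a UMI, by library; the area of a point grows with the number of cells at it. The 6 cells with 12 or more mesothelial genes stand far to the right of the other 527, which hold at most 4, and library 3 holds the cells with the most valve and tendon-like genes.

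Markers of other cell types were low but differed by library. Endothelial markers other than Cdh5, which the rule sets to 0, summed to 200.5, 803, 209.7 and 74.2 CPM in libraries 1 to 4, with 8 of 9 genes detected and Fabp4, a fatty acid binding protein of capillaries, holding the most UMIs. In library 2 Fabp4 was at 674 CPM in the Prg4 cells and 24686 CPM in the Cdh5 cells. Granulocyte markers summed to 23.3, 605, 17 and 32.1 CPM, and S100a9, a calcium-binding protein of neutrophils, had a UMI in 98.3% of Prg4 cells and 98.7% of Cdh5 cells of library 2. The S100a9 signal was thus spread over cells of both types in that library.

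Macrophage markers summed to 57.5, 41.1, 146 and 364 CPM, led by Lyz2, the lysozyme gene, and were highest in library 4. T and NK cell markers summed to 1.55, 0.34, 2.26 and 57.8 CPM. Pericyte markers, led by Pdgfrb, summed to 233, 77.1, 243 and 121 CPM and smooth muscle markers, led by Tagln over all libraries, to 171, 116, 775 and 932 CPM. Cardiomyocyte markers summed to 177, 23.2, 113 and 7.59 CPM and erythroid markers, led by the haemoglobin gene Hbb-bs, to 115, 474, 26.8 and 12.3 CPM. B cell markers reached at most 2.34 CPM, and of 6 Schwann cell genes 2 were at 0 over all 533 cells. The part of these other types in the results below was not tested.

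The main reference for the Prg4 cells was the set of cells that met the same rule except for having 0 Prg4 UMIs, called Dcn Timp1 cells without Prg4. There were 978 of them, with 214, 54, 614 and 96 in libraries 1 to 4 and a median of 22443 UMIs. Levels were compared within libraries 2, 3 and 4, each of which held at least 50 cells of both sets, as the ratio of CPM + 10. A gene counted as higher or lower if that ratio passed 2-fold the same way in all 3 libraries. The ratios describe sets that were split on a measured gene, so they carry no test.

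Cxcl5 (ENSMUSG00000029371, chromosome 5, 90759360 to 90761624, plus strand) was abundant in the Prg4 cells of library 2 and scarce in library 3. Its level was 135, 4723, 56.2 and 429 CPM in libraries 1 to 4, with an interval of 4677 to 4768 CPM in library 2 and 47.5 to 66 CPM in library 3. The Dcn Timp1 cells without Prg4 had more of it in each library, at 211, 11220.3, 102 and 763 CPM. Their interval in library 2 was 11028 to 11415 CPM.

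The share of Prg4 cells with a Cxcl5 UMI was 36.7, 78.5, 13.3 and 64.8%, against 49.5, 90.7, 20.8 and 75% of the cells without Prg4. Background was not small in library 2, where 46% of Cdh5 cells had a Cxcl5 UMI, against 3.25, 2.85 and 5.16% in libraries 1, 3 and 4. With every cell thinned to 2000 UMIs, the shares of Prg4 cells were 6.67, 56.9, 5.71 and 33.3% and those of cells without Prg4 19.7, 79.2, 9.34 and 44.9%. The median Prg4 cell of library 2 had 607 CPM and the median cell without Prg4 7034 CPM. The log2 ratio of CPM + 10 was -1.25, -0.76 and -0.82 in libraries 2, 3 and 4. Cxcl5 was thus not particular to cells with Prg4.

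Ptx3 (ENSMUSG00000027832, chromosome 3, 66219910 to 66225805, plus strand) was likewise highest in library 2 and lowest in library 3, at 398, 1214, 111 and 193 CPM in the Prg4 cells and 213, 2182, 179 and 511 CPM in the Dcn Timp1 cells without Prg4. A Ptx3 UMI was found in 46.7, 89, 38.1 and 53.7% of Prg4 cells, 32.7, 81.5, 31.8 and 50% of cells without Prg4 and 3.17, 17.5, 5.31 and 3.39% of Cdh5 cells. The log2 ratio was -0.84, -0.65 and -1.36. The direction in libraries 2 and 4 rested on few cells. In library 2, 5 of the 54 cells without Prg4 held 60.8% of that set's Ptx3 UMIs, and the median cell had 428 CPM against 555 CPM in the Prg4 cells. In library 4, 5 of the 96 cells without Prg4 held 49.9%, and the median cell had 8.43 CPM against 17.9 CPM. The median cell was at 0 in both sets of library 3, with upper quartiles of 47.6 CPM without Prg4 and 80.5 CPM in the Prg4 cells. In library 1, 5 of the 30 Prg4 cells held 91.4% of the Ptx3 UMIs.

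The summed Ptx3 level was thus lower in the Prg4 cells of libraries 2, 3 and 4 and higher in library 1. With cells thinned to 2000 UMIs, a Ptx3 UMI was found in 16.7, 60.3, 16.2 and 16.7% of Prg4 cells and 14.1, 56.6, 12 and 32.6% of cells without Prg4, so the order of the shares turned in library 4. In library 2, 238 of 344 Prg4 cells had UMIs of both Cxcl5 and Ptx3, 270 had Cxcl5 and 306 had Ptx3. In library 3, 10 of 105 had both.

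**Figure D3:**
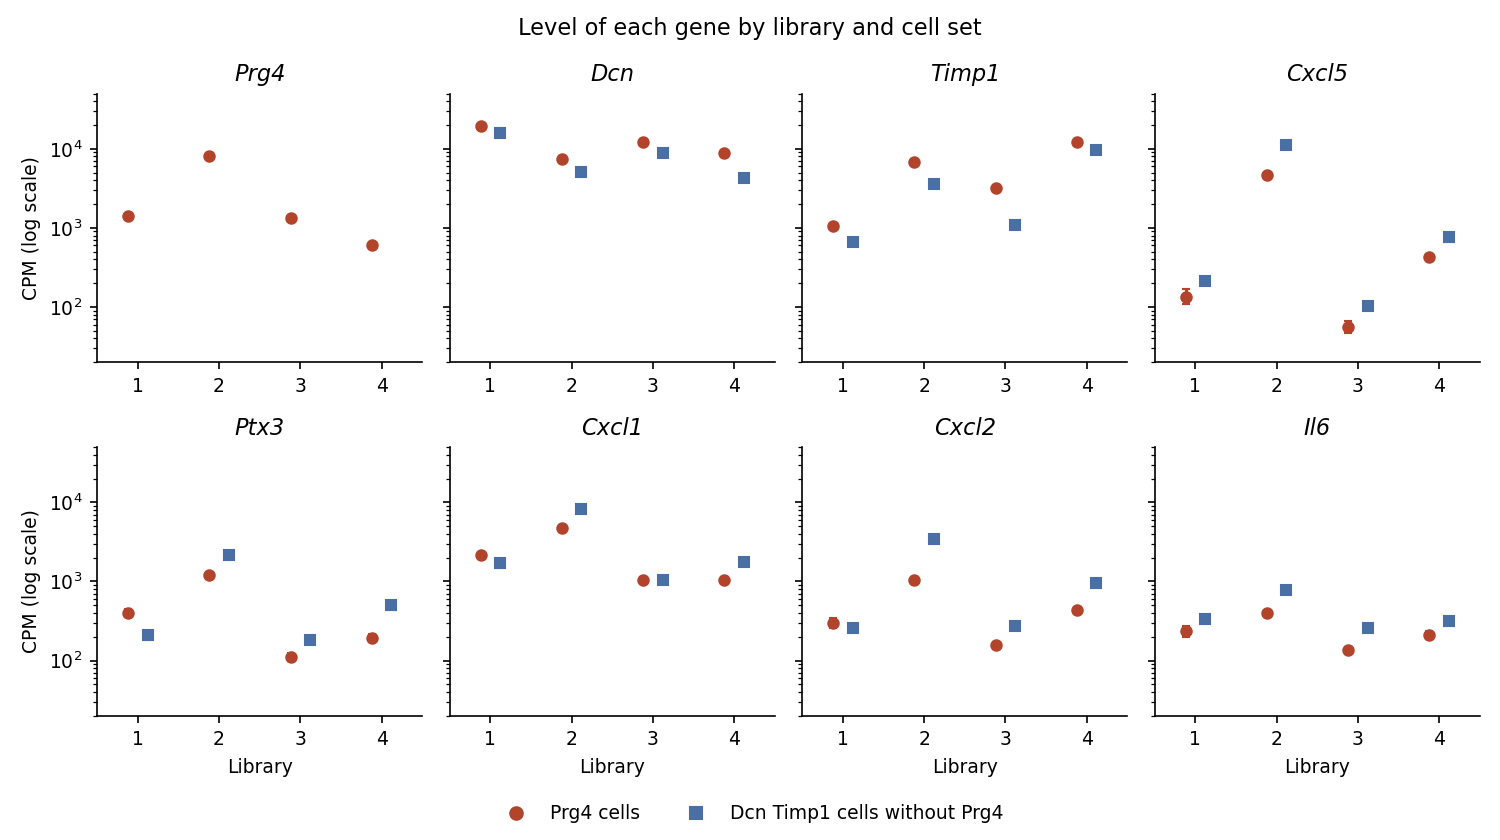
Level in CPM (vertical axis, log scale) of 8 genes in the Prg4 cells (circles) and the Dcn Timp1 cells without Prg4 (squares) of libraries 1 to 4 (horizontal axis); bars are exact Poisson 95% intervals and are mostly smaller than the points. Cxcl5 is highest in library 2 in both sets, and its squares lie above its circles in all 4 libraries.

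Other chemokines that draw neutrophils through the same receptor as Cxcl5 were also highest in library 2. Cxcl1 was at 2130.4, 4770.1, 1053 and 1049 CPM in the Prg4 cells of libraries 1 to 4 and at 1692, 8314, 1043 and 1768 CPM in the cells without Prg4. Cxcl2 was at 298, 1043, 155 and 430.5 CPM against 254, 3483, 271 and 949 CPM, a log2 ratio of -1.73, -0.76 and -1.12 in libraries 2, 3 and 4. Cxcl3, picked after its values were seen, was at 1.55, 532, 0 and 31.5 CPM against 1.12, 795, 3.09 and 117 CPM. All 3 were highest in library 2 in both sets.

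Stretches before the start sites of these chemokines and of the cytokine gene Il6 are shown because the genes were high together in library 2 and share a motif. The search was for GGGA and TTTCC with any base between them, a form of the NF-kappa-B binding motif, on both strands of windows from 250 bases before to 50 after each RefSeq start. The motif was chosen after these values were seen, and 135 of 32851 windows, or 0.411%, held it. Of 13 genes of the chemokine list with a window, Cxcl1, Cxcl2 and Cxcl3 held it, and of 10 in the list of interleukin 6 family and colony-stimulating factors, Csf1 and Il6. The 250 bases upstream are printed from RefSeq GRCm38.p6, plus strand, at chr5:90890995-90891244, chr5:90903649-90903898, chr5:90785851-90786100 and chr5:30012864-30013113, with the motif in capitals. Its first base lies at -71, -97, -73 and -44 from the start.
Cxcl1: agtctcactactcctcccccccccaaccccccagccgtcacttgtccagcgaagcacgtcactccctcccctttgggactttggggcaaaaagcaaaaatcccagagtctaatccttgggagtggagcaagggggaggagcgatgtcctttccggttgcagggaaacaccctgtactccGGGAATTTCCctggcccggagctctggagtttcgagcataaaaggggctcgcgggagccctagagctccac
Cxcl2: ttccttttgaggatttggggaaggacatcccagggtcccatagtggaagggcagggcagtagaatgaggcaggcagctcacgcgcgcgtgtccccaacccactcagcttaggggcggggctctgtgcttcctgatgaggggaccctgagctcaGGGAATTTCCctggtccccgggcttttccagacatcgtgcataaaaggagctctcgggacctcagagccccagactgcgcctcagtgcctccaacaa
Cxcl3: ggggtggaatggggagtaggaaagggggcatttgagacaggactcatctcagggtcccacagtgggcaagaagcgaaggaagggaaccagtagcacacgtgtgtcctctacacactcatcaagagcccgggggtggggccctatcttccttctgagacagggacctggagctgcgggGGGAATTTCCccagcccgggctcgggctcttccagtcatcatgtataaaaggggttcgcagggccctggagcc
Il6: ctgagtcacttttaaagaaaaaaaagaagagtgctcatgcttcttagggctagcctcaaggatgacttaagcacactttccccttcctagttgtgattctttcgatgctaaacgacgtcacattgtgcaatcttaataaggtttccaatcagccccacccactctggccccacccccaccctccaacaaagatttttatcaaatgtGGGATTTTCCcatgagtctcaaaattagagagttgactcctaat
A match is a string of letters and no evidence of binding. The Ptx3 window held no such string, and no window of Prg4 or Cxcl5 was used here.

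Il6, interleukin 6, was at 233, 403, 135 and 211 CPM in the Prg4 cells of libraries 1 to 4 and 331, 783, 260.4 and 319 CPM in the cells without Prg4, with log2 ratios of -0.94, -0.90 and -0.57. In library 4 the median cell ran the other way, with 35.1 CPM of Il6 in the Prg4 cells and 29.3 CPM without Prg4. There 5 of the 96 cells without Prg4 held 41.5% of that set's Il6 UMIs. Il11, a related cytokine known for its action on fibroblasts, was at 12.4, 330, 9.81 and 36.2 CPM. Lif, leukaemia inhibitory factor, was at 4.66, 177, 16.6 and 52 CPM. These 3 were highest in library 2.

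Csf2 and Csf3, growth factors of granulocytes and macrophages that were picked after their values were seen, had most of their UMIs in library 2. Csf2 was at 136 CPM in its Prg4 cells and 589.9 CPM in its cells without Prg4, and had 0 UMIs in the Prg4 cells of libraries 1, 3 and 4. Csf3 was at 0, 37, 1.89 and 0.584 CPM in the Prg4 cells and 1.34, 313, 9.56 and 14.2 CPM in the cells without Prg4. Of 10 genes of this list counted in all 3 libraries, none was higher or lower in all, and 2 of 12 were lower in library 2, where 0.238% of all genes were. The list's median log2 ratio was -0.40, -0.05 and -0.39 in libraries 2, 3 and 4, beside 0.01, 0.00 and -0.01 over all genes counted.

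Across all genes, few were different in every library. Of 8747 genes with a UMI in at least 10% of the cells of either set in libraries 2, 3 and 4, 7 were at least 2-fold higher in the Prg4 cells (0.0800%) and 0 were lower (0%). Without library 2 or without library 3 the count was 17 higher and 2 lower, without library 4 it was 12 and 0, and with libraries pooled 219 and 257. Within single libraries the shares were larger. They were 0.736% higher and 0.238% lower in library 2, 0.580% and 0.222% in library 3, and 0.507% and 0.437% in library 4. The 7 genes were Chil1, Comp, Tgfbi, Igfbp6, Pi16, Ackr3 and Cd9.

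Chil1, a secreted chitinase-like glycoprotein of inflamed tissue, had the highest least ratio. Its level was 48.2, 108, 103 and 117 CPM in the Prg4 cells of libraries 1 to 4 and 6.03, 2.59, 3.53 and 3.88 CPM in the cells without Prg4, at least 8.35-fold on the CPM + 10 scale. In library 2 the comparison held 3 UMIs, for a ratio of CPM of 41.8 with a counting interval of 14.3 to 203. The intervals in library 3 were 91.1 to 116 CPM and 2.6 to 4.68 CPM. The gene was in a minority of cells, 10.5, 21.9 and 27.8% in libraries 2, 3 and 4, and 5 cells held 73.2, 72.2 and 75.5% of its UMIs there. The cells without Prg4 held 3, 48 and 9 Chil1 UMIs in these libraries, over 54, 614 and 96 cells. Chil1 thus passed the 10% filter through the Prg4 cells alone, and its rank is only a description.

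Comp, cartilage oligomeric matrix protein, was at 289, 41.9, 1422 and 245 CPM against 239, 0.864, 411 and 19 CPM, and in 33.3, 11.9, 62.9 and 37% of Prg4 cells against 21.5, 1.85, 53.3 and 5.21% of cells without Prg4. The median Prg4 cell had no Comp UMI in libraries 2 and 4. In library 4, 5 of 54 Prg4 cells held 77.3% of the Comp UMIs and 5 of 96 comparison cells held all 44. In library 2 the comparison held 1 UMI, for a ratio of 48.5 with a counting interval of 8.65 to 1921. Tgfbi, an adhesion protein that TGF-beta induces, was at 222, 69.3, 164 and 108 CPM against 132, 18.1, 40.6 and 41 CPM. Tgfbi is also made by leukocytes, at 597, 869, 545 and 1196 CPM in the Ptprc cells, and its part from them was not tested.

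Pi16 and Ackr3 are genes of resting fibroblasts. Pi16, a peptidase inhibitor of the vessel sheath, was at 1371, 179, 1256 and 665 CPM in the Prg4 cells of libraries 1 to 4 against 749, 46.6, 569 and 179 CPM in the cells without Prg4. Ackr3, a scavenging chemokine receptor, was at 104, 220, 77.3 and 123 CPM against 49.4, 97.6, 23.2 and 38.8 CPM. Igfbp6 was at 1032, 179, 692 and 401 CPM against 419.8, 72.5, 260 and 170 CPM.

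Cd9, a tetraspanin of the cell surface, was at 654, 266, 651 and 467 CPM against 360.2, 125, 312 and 209.6 CPM, close to the 2-fold threshold at least 2.04-fold. The median cell showed the same order, with 197, 539 and 463 CPM in the Prg4 cells of libraries 2, 3 and 4 and 63.1, 244 and 102 CPM in the cells without Prg4. Of the 7 genes, all were also above the comparison in library 1, which had 30 Prg4 cells and was not used for the count. For Comp and Chil1 this rested on few cells. In that library the 5 highest Prg4 cells held 88.7% of the Comp and 87.1% of the Chil1 UMIs, and the median cell of both sets had neither.

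Among the next 13 by least ratio were Dio2, Prelp, Ntn1, Ly6c1, Gsn, Sod3, Nbl1, Cd34, Ptprb, Uap1 and Clu. Prelp, a proteoglycan of basement membranes and cartilage, had log2 ratios of 0.96, 1.45 and 1.68 in libraries 2, 3 and 4. Sod3, the extracellular superoxide dismutase, had 0.93, 0.83 and 0.71. Clu, the chaperone clusterin, had the widest range of the 13, at 0.59, 2.77 and 1.06, and rested on few cells, since 5 cells held 55.1, 72.6 and 76.2% of its UMIs in the Prg4 cells of these libraries. All 13 missed 2-fold in at least 1 library.

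The 10 genes with the lowest ratios were Cxcl2, Cxcl5, Adm, Ptx3, Rgs16, Myo10, Il6, Ankrd1, Ppp1r14a and Hs6st2. None was 2-fold lower in all 3 libraries. Adm, the vasodilator adrenomedullin, was at 9.32, 58.5, 20.7 and 26.3 CPM in the Prg4 cells of libraries 1 to 4 and 62.8, 108, 38.4 and 62.5 CPM in the cells without Prg4. The median cell had no Adm in either set of any library. In libraries 2 and 4, 5 of the cells without Prg4 held 67.2% and 73.1% of that set's Adm UMIs. Cxcl5 and Ptx3, given as markers of these cells, were among these 10 by their summed levels. For Ptx3 the median cells of libraries 2 and 4 ran the other way, and for Il6 that of library 4.

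**Figure D4:**
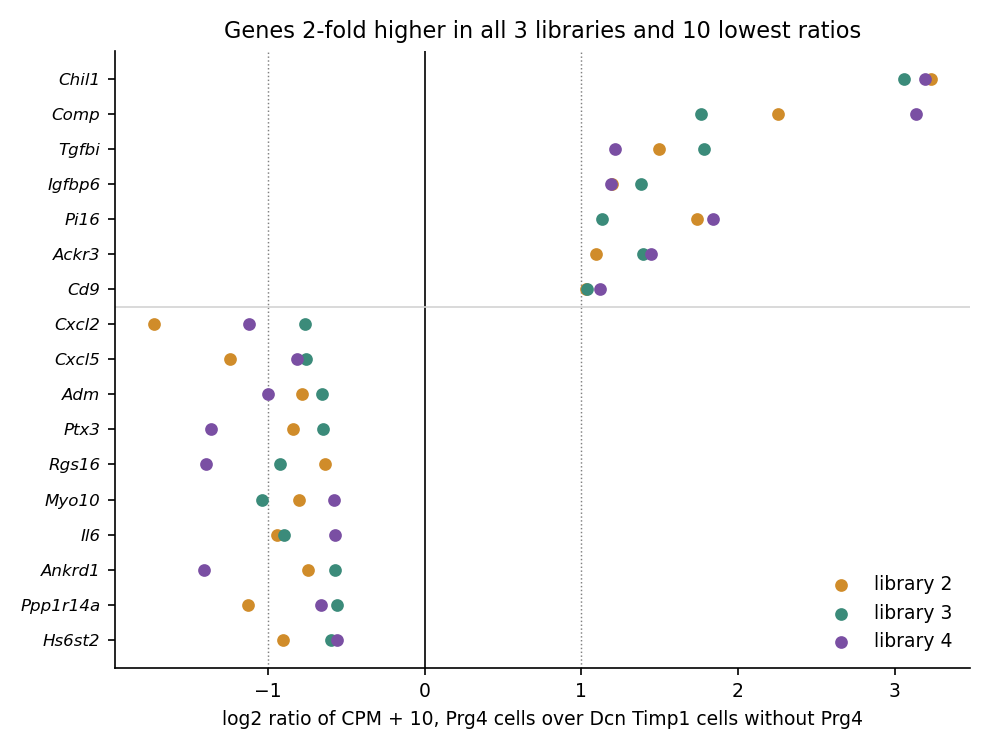
Log2 ratio of CPM + 10 (horizontal axis) of the Prg4 cells over the Dcn Timp1 cells without Prg4 for the 7 genes that were 2-fold higher in all 3 libraries and the 10 with the lowest ratios (vertical axis); each point is 1 library, and dotted lines mark 2-fold. For the top 7 genes, from Chil1 to Cd9, all 3 points lie beyond the line; for the bottom 10, from Cxcl2 to Hs6st2, at least 1 point lies short of it.

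Gene lists, which are described by counts and medians beside the values over all genes, showed where the Prg4 cells differed from the comparison. Of 13 resting fibroblast genes counted in all 3 libraries, Pi16 and Ackr3 were higher, and within libraries 5 of 14, 5 of 16 and 4 of 13 were higher and none lower, beside shares higher over all genes of 0.0800% in all 3 libraries and 0.736%, 0.580% and 0.507% within them. The shares lower over all genes were 0% in all 3 libraries and 0.238%, 0.222% and 0.437% within libraries 2, 3 and 4. Both kinds of share stand as the reference for each list below. The median log2 ratio of the resting fibroblast list was 0.93, 0.68 and 0.31 in libraries 2, 3 and 4. Gsn had log2 ratios of 0.83, 0.99 and 1.23 and Mfap5, a microfibril protein, of 0.93, 0.25 and 0.56. Ly6a, the stem cell antigen 1 gene, had 1.43, 1.27 and 0.27. Of 16 activated fibroblast genes Comp was higher in all 3, within libraries 3, 1 and 2 were higher and 1, 1 and 0 lower, and the medians were 0.42, -0.26 and 0.06. Of the 13 general fibroblast markers 4, 0 and 1 were higher within libraries and none lower. Postn, periostin, was at 2365, 325, 3404 and 853 CPM against 1796, 125, 5295 and 733 CPM, so its order turned between libraries.

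Valve and tendon-like matrix genes were counted in few libraries. Of 13, 3 were counted in all 3 libraries and Comp was higher. Within libraries 2 of 3, 4 of 8 and 2 of 6 were higher and none lower, with medians of 2.26, 0.96 and 0.50. A gene was counted if enough cells of either set had a UMI, so a gene scarce in the comparison could enter through the Prg4 cells alone. In library 2 Comp entered that way, with a UMI in 41 of 344 Prg4 cells and 1 UMI over the 54 cells without Prg4. The counts and medians of this list, most clearly in library 2, were thus partly set by that filter and are only a description. Thbs4, a thrombospondin of tendon and muscle, was at 522, 118, 781 and 26.3 CPM against 102, 0, 662 and 17.3 CPM. Cytl1, a secreted protein of cartilage, was at 186, 0.793, 208 and 5.26 CPM against 2.01, 0, 3.6 and 0 CPM, from 2, 5, 17 and 2 Prg4 cells of the 30, 344, 105 and 54. Wif1, an inhibitor of Wnt ligands, was at 35.7, 15.4, 108 and 29.2 CPM against 5.59, 0, 1.25 and 1.29 CPM, from 3, 18, 14 and 9 Prg4 cells. Both thus came from few cells.

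Collagens gave no gene of 17 counted that was higher or lower in all 3 libraries. In library 2, 3 of 17 were higher, and in libraries 3 and 4 none of 18 was higher or lower, with medians of 0.18, -0.27 and -0.26. Col1a1, a chain of type I collagen, was at 5274, 377, 6989 and 4099 CPM in the Prg4 cells and 10408, 149, 9884 and 5492 CPM in the cells without Prg4. The proteoglycan list, 6 counted with none higher in all 3 libraries and 0 of 6, 1 of 8 and 1 of 7 higher within them, had medians of 0.58, 0.11 and 0.27. The hyaluronan list had none of 9, with 1 of 9 lower in library 4, and medians of 0.35, 0.05 and 0.03. Within it Tnfaip6, which modifies hyaluronan, was at 382, 717, 138 and 271 CPM against 246, 523, 150.5 and 301 CPM, and the hyaluronan synthase Has1 at 176, 308, 45.6 and 149 CPM against 92.7, 239, 40.4 and 126 CPM. Proteases and inhibitors had none of 15 in all 3 libraries, while 2 of 17 were higher in library 2, 1 of 16 lower in library 3 and 1 of 17 higher in library 4, with medians of 0.09, -0.11 and -0.26.

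Chemokines had none of 9 genes higher or lower in all 3 libraries. Within libraries 2 of 11 were higher and 2 lower in library 2, 2 of 11 higher in library 3 and 2 of 15 lower in library 4, with medians of -0.11, 0.24 and -0.05. Over all genes 0.736% were higher and 0.238% lower in library 2, 0.580% higher in library 3 and 0.437% lower in library 4. Acute-phase and complement genes had none of 9, with 2 of 11, 2 of 11 and 2 of 14 higher within libraries, and medians of 0.22, 0.37 and 0.25. Interferon response genes had none of 9 in all 3 libraries, none within any of them, and medians of 0.15, 0.04 and 0.06, beside 0.01, 0.00 and -0.01 over all genes. Growth factors had 1 of 19, Igfbp6, with 2 of 19, 2 of 21 and 2 of 22 higher within libraries and 2 of 22 lower in library 4, and medians of 0.12, 0.28 and -0.09. Metallothionein and oxidative stress genes had none of 9, glycolysis and hypoxia genes none of 14, immediate early and heat shock genes none of 15 and cell cycle genes none of 4, and none of these was higher or lower within any of libraries 2, 3 and 4 either.

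Of 9 lining-layer and adhesion genes counted none was higher or lower in all 3 libraries, while 1 of 9 was higher in library 2, 1 of 12 higher in library 3 and 2 of 11 lower in library 4. Prg4 itself sits on that list and was left out of the count as a rule gene. Pdpn, the podoplanin of synovial and lymphoid stroma, was at 110.3, 521, 123 and 196 CPM against 76.6, 801, 89.2 and 170.4 CPM. Cd55, which marks the lining layer of joints, was at 127, 28.1, 131 and 45 CPM against 108, 26.8, 71.6 and 25 CPM. Vcam1, an adhesion molecule for leukocytes, was at 430.4, 196, 384 and 1279 CPM against 326, 206, 326 and 1114 CPM.

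In library 2, 4 of 4 erythroid genes counted were higher, beside 0.736% of all genes, with a median log2 ratio of 2.03. Hbb-bs was at 272 CPM in its Prg4 cells, 35.4 CPM in its cells without Prg4 and 1438 CPM in its Cdh5 cells. It had a UMI in 57.6% and 55.6% of the cells of the first 2 sets, which overlap within their intervals of 52.1 to 62.8% and 41.4 to 69.1%. The list's medians were -0.59 and 0.02 in libraries 3 and 4. Its part in other ratios was not tested.

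The libraries differed widely in several gene groups, and for 4 of the 5 groups given here, all but the chemokines, in the same order in both sets. Collagens summed to 30984, 5328, 40086 and 21227 CPM in the Prg4 cells of libraries 1 to 4 and to 47812, 3780.1, 49451.5 and 25836 CPM in the cells without Prg4. Interferon response genes summed to 1333, 153, 681 and 10093 CPM against 1180.1, 147, 671 and 9512 CPM. MHC class II genes summed to 149, 9.17, 111 and 2797 CPM against 142, 7.77, 72.6 and 2438 CPM.

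In the Prg4 cells, collagens were thus highest in library 3 and the interferon and MHC class II genes in library 4. Chemokines summed to 5095, 16574, 2532 and 20033 CPM against 4277, 29198, 2436 and 21026 CPM, and were highest in libraries 4 and 2 in the Prg4 cells. Valve and tendon-like genes summed to 1577, 242, 3335 and 400.1 CPM against 581, 35.4, 1626 and 109 CPM, and were highest in library 3 in the Prg4 cells. Library, graft and processing cannot be told apart here.

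In library 2 both sets had high neutrophil-attracting chemokines and metallothioneins and low collagens as summed levels. Mt1, a metallothionein that binds zinc and copper, was at 3638, 15745, 1239 and 4838 CPM in the Prg4 cells of libraries 1 to 4 and at 3516, 15113, 1217 and 4321 CPM in the cells without Prg4. In the Prg4 cells Mt2 was at 1164, 7938, 404 and 2429 CPM. Inhba, the activin A subunit, was at 96.3, 416, 75.4 and 150.1 CPM. Vegfa, the vascular growth factor, was at 31.1, 272, 68.3 and 117 CPM. Each of these was highest in library 2.

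Mmp3, a matrix-degrading enzyme, was at 123, 671, 129 and 461 CPM in libraries 1 to 4. Col1a1 was lowest in library 2, at 377 CPM, and so was Col3a1, at 9937, 1369.6, 13028 and 7344 CPM in the 4 libraries. Aldh1a2 was at 189.6, 405, 90.5 and 203 CPM in the Prg4 cells and 69.7, 329, 124 and 334 CPM in the cells without Prg4, so it too varied with the library.

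In library 4 the Prg4 cells carried interferon-response genes and antigen presentation genes. Iigp1, an interferon-induced GTPase, was at 171, 3.4, 48.3 and 2348 CPM in libraries 1 to 4, and Gbp4, a guanylate-binding protein, at 6.22, 0.453, 2.64 and 1665 CPM. Cd74, the MHC class II invariant chain, was at 60.6, 3.51, 40.4 and 1297 CPM. It had a UMI in 36.7, 8.43, 41 and 100% of Prg4 cells and in 27.1, 13.2, 38.3 and 99.1% of Cdh5 cells, so its UMIs in library 4 were not special to these cells.

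Cxcl9 and Cxcl10, chemokines that draw T cells through CXCR3, were picked after their values were seen. Cxcl9 was at 1.55, 0.793, 0.377 and 3168 CPM and Cxcl10 at 21.8, 16.3, 76.2 and 2239 CPM. Ccl2, which draws monocytes, was at 387, 3046, 330.4 and 6604 CPM and Saa3, an acute-phase protein, at 115, 196, 2.64 and 2272 CPM. In the cells without Prg4 of library 4 these 4 genes were at 2668, 1654, 6838 and 2331 CPM. Macrophage marker UMIs were also highest in that library, and 69.3% of its cells kept had at least 3 Ptprc UMIs.

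**Figure D5:**
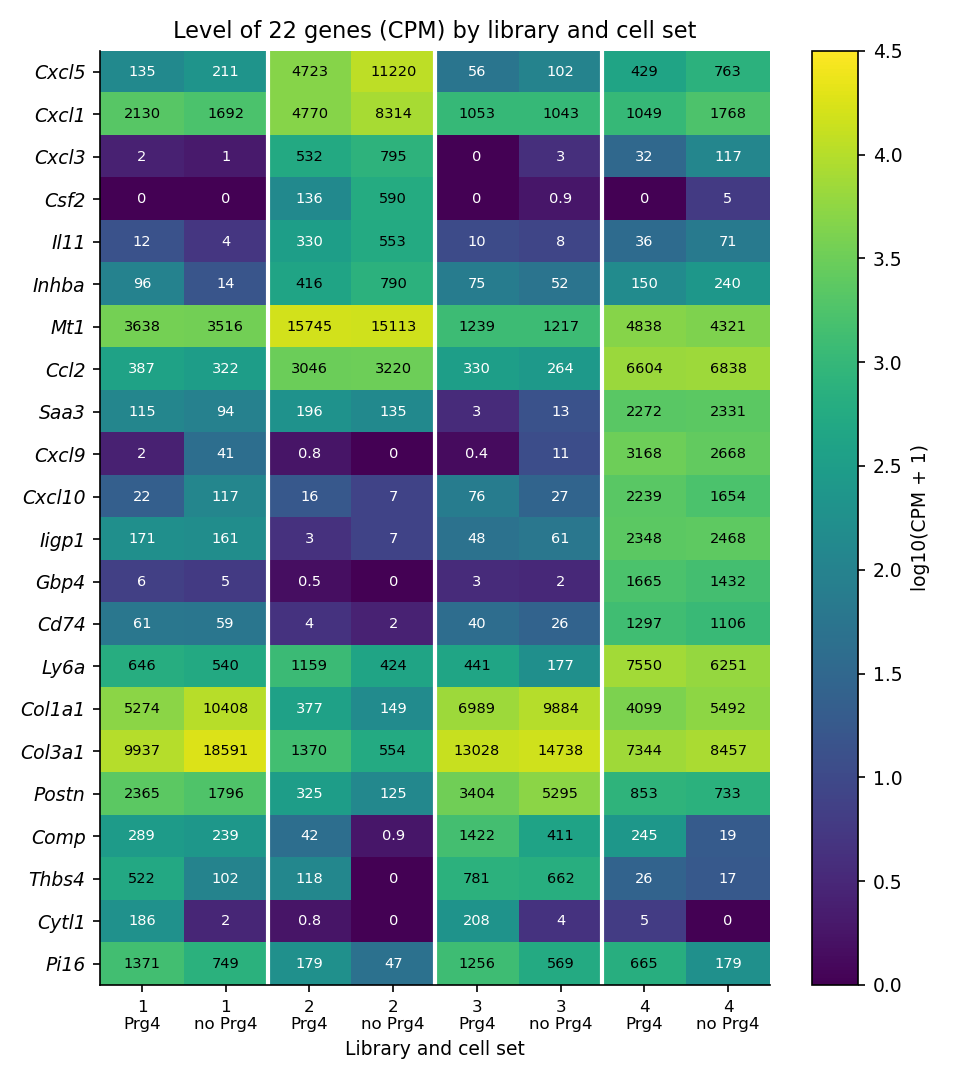
Level of 22 genes (rows) in the Prg4 cells and the Dcn Timp1 cells without Prg4 of libraries 1 to 4 (columns); colour is log10(CPM + 1) and the printed values are CPM. In both sets Cxcl5 and Mt1 are highest in library 2, Cxcl9, Iigp1 and Cd74 are highest in library 4, and Col1a1 is lowest in library 2.

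In library 3 both sets had high collagens and tendon-like matrix. Comp was at 1422 CPM and Fmod, fibromodulin, at 189.6, 4.53, 325 and 9.35 CPM in libraries 1 to 4. At least 3 of the 13 valve and tendon-like genes were found in 26.7, 9.01, 61.9 and 22.2% of Prg4 cells of libraries 1 to 4 and in 18.7, 0, 56 and 4.17% of cells without Prg4. Within the Prg4 cells of library 3 a few cells carried most of the rarer genes. Cytl1 was found in 17 of 105 cells and Chad, chondroadherin, which was picked after its values were seen, in 9. Both were in 6 cells, Wif1 and Cytl1 in 7, and Comp and Cytl1 in 15.

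None of these 17 Cytl1 cells or 9 Chad cells had a Msln UMI, and the 4 Msln cells of library 3 were outside both. Cytl1 and Cxcl5 did not meet in any cell of that library either, where Cxcl5 was in 14 cells. Over the whole list the separation was not complete, since the 4 cells held 0, 2, 3 and 3 of the 13 valve and tendon-like genes. These overlaps were not tested.

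Among the 344 Prg4 cells of library 2, the level of Prg4 itself ran over a wide range, and some genes ran with it. The cells were divided at 10, 50 and 200 Prg4 UMIs into 37, 105, 105 and 97 cells, with median depths of 19890, 23412, 26356 and 30769 UMIs. Timp1 was at 3328.5, 3839, 5603 and 10807 CPM over these steps. Chil1 was at 4.35, 14.5, 52.4 and 257 CPM and Comp at 4.35, 9.12, 37.6 and 80.5 CPM. Inhba was at 267, 230.4, 307 and 697 CPM.

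Il11 was at 125, 119, 401 and 482 CPM and Postn at 119, 144, 169 and 656 CPM over the same steps, with most of the Postn in the last. Thbs4 was at 0, 25.3, 30.3 and 298 CPM. Cxcl5 had its highest value in the first step, at 8598, 4740, 4798 and 3755 CPM. Ptx3 was at 1439.7, 1703, 1065 and 907 CPM and Tnfaip6 at 261, 758, 710.2 and 793 CPM. In library 2, Timp1, Chil1, Comp, Postn and Thbs4 levels were thus larger, and Cxcl5 and Ptx3 levels smaller, in the cells with 200 or more Prg4 UMIs than in those with 5 to 9. The granulocyte marker S100a9 also fell, at 585, 259, 258 and 218 CPM over the steps, and its part was not tested. Timp1 was a rule gene, and the median cell of library 2 had no Chil1 or Comp, of which 5 cells held 73.2% and 50.5% of the UMIs.

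In library 3 the steps held 49, 44, 7 and 5 cells, and the order was not the same for every gene. There Postn was at 3922, 2808, 2561 and 3306 CPM and Thbs4 at 458, 984, 3071 and 401 CPM, both lower in the last step than in the first. Chil1 was at 20.3, 161, 562 and 76.1 CPM and Comp at 888, 2101, 2159 and 1183 CPM. Cxcl5 was at 91.2, 19.1, 7.60 and 20.7 CPM and Ptx3 at 143, 53.3, 220.4 and 89.9 CPM. In library 2 depth also grew over the steps, and its part was not tested.

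As a description over cells that share a library, Spearman correlations with the cell's Prg4 CPM ran from -0.44 to 0.38 over 6781 genes in library 2 (344 cells). Timp1 was at 0.36 there. The highest was Sec61b, a subunit of the channel through which secreted proteins enter the endoplasmic reticulum, at 0.38, and the lowest Hsd11b1, which activates glucocorticoids, at -0.44. In library 3 (105 cells, 7456 genes) they ran from -0.57 to 0.56, with Cd9 at 0.56 and Gsn at 0.48. In library 2 Cd9 was at 0.17 and Gsn at -0.05, so these genes were less correlated there. Prg4 and Timp1 were rule genes, and 49 of the 105 cells of library 3 held only 5 to 9 Prg4 UMIs. Near that cut the Prg4 CPM of a cell depends on its depth. The part of the cut and of depth in these correlations was not tested.

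A pair of further fibroblast sets without Prg4 was set beside the Prg4 cells. Clec3b resting fibroblasts (at least 3 Clec3b and 5 Dcn UMIs, 0 Postn) numbered 750, of which 698 were in library 1, 4 in library 2, 48 in library 3 and 0 in library 4. Postn fibroblasts (at least 5 Postn and 5 Dcn UMIs) numbered 1301, with 310, 7, 944 and 40 by library. Both had 0 Prg4 UMIs, and they overlapped the main comparison, which held 42 of the 750 and 760 of the 1301. In libraries 1 and 3, Pi16 was at 1371 and 1256 CPM in the Prg4 cells, 393 and 679 CPM in the resting and 819.9 and 601 CPM in the Postn fibroblasts. It was thus highest in the Prg4 cells of both libraries.

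Comp in libraries 1 and 3 was at 289 and 1422 CPM in the Prg4 cells, 29.5 and 10.5 CPM in the resting and 221 and 374 CPM in the Postn fibroblasts. Ptx3 was at 398 and 111 CPM in the Prg4 cells of these libraries, 97.8 and 88.3 CPM in the resting and 125 and 141 CPM in the Postn fibroblasts. Cxcl5 was at 135 and 56.2 CPM, 129 and 58.8 CPM and 223 and 76.8 CPM in the same order. Clec3b, tetranectin, chosen for the resting set by its rule, was at 469, 56, 112 and 5.84 CPM in the Prg4 cells of libraries 1 to 4. Neither Cxcl5 nor Ptx3 set the Prg4 cells of library 3 apart from both kinds of fibroblast, since the Ptx3 value lay between theirs and the Cxcl5 value was the lowest of the 3.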

How the data were processed

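Cells of 2 allogeneic and 2 syngeneic heart grafts were sequenced with 10x Genomics 3′ version 3 chemistry. The authors aligned reads to mm10 (Ensembl 92) with Cell Ranger 3.0.0 and deposited raw UMI counts per gene and cell as 1 merged matrix. The submitters' processing notes also name CASAVA 1.8 and Seurat. Counts of 5 UMIs or more, as in the rule for Prg4 cells, depend on depth, which differed between libraries. The members and gene lists were chosen with earlier results of these data known.

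Counts were read with Python 3.11.15, numpy 2.4.6, pandas 2.3.3 and scipy 1.17.1, and plotted with matplotlib 3.10.9. Mitochondrial genes, rule genes and duplicated symbols were left out of comparisons, and CPM are per 1000000 UMIs of non-mitochondrial genes. A pseudocount of 10 CPM and a UMI in at least 10% of cells of either set were used. Of 369 distinct list genes, 364 were found under 1 identifier. Doublets were marked per library from simulated pairs (scikit-learn 1.9.0; 2000 genes, 30 components, 50 neighbours, top 5%) and kept. Named genes were those of the rule and label, the 20 highest and 10 lowest ratios, and up to 6 genes of each list by UMIs. Some genes within this rule are not reported here. The comparison was tested first on simulated counts, in which the cells of a library and set differed only in depth and counting error. That test could not cover genes whose UMIs lie in few cells. Intervals are 95% exact Poisson for CPM and Clopper-Pearson for shares, and a count of 0 is bounded by 3 counts. Gene positions are from GENCODE M21 on GRCm38.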

Additional observations from a re-analysis of the deposited data

How the results depend on the processing

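No paired analysis was possible because the replicate numbers of the grafts could not be tied to cells. The cell sets were compared within each library, and with no test because they were split on a measured gene. Of 102 recomputed summary values, 63 stayed within counting error or 1.5 times and 39 moved. Allowing 1 UMI of Ptprc and of Cdh5 gave 824 Prg4 cells, and leaving out 1 library gave 189 (without library 2) to 503. The share from library 2 was 57.7% with 3 Prg4 UMIs, 75.1% with 10, 54.3% with no Timp1 threshold and 76.7% with 500 CPM of Prg4 as well, a setting added after seeing the data; without 1 library the top share was 55.6% to 80.4%, the lowest with library 2 left out. The share with Cxcl5 was 52.2% with no Timp1 threshold, 40.2% thinned to 2000 UMIs, and 31.7% to 73.8% without 1 library. The share with Ptx3 was 68.2%, 77.8%, 66.3%, 43.8% and 77.2% with 3 UMIs, 10 UMIs, no Timp1 threshold, thinning and 500 CPM, and 43.9% to 81.5% without 1 library; for both genes the lowest came without library 2 and the highest without library 3. At least 3 mesothelial genes were found in 1.69% of thinned cells, and 9 genes, added after seeing the data, in 1.13%.

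Genes higher in the Prg4 cells numbered 2 with 3 Prg4 UMIs, 19 with 10, 4 with no Timp1 threshold, 12 under 10% mitochondrial UMIs, 219 with libraries pooled, 3 thinned, 12 with a pseudocount of 1 CPM, 2 at 3-fold and 27 with 500 CPM, and 7 to 17 without 1 library. Leaving out library 2 or library 3 gave 17 and leaving out library 4 gave 12. Genes lower numbered 2 with 10 UMIs, 257 pooled and 3 with 500 CPM, and 0 to 2 without 1 library. Fewer or more libraries entered some settings: all 4 with 3 UMIs or no Timp1 threshold, and libraries 2 and 3 with 10 UMIs, 10% mitochondrial UMIs or 500 CPM. Without cells of 9 or more mesothelial genes 8 genes were higher of 8700.

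Pooling mixes libraries that differ in level, and the log2 ratio of Pi16, over 2-fold in libraries 2, 3 and 4, reversed to -0.10 there. Of 450 recomputed ratios of named genes, 375 kept their side, 36 passed the 2-fold line, 16 fell short of it and 23 changed sign, 22 of these for genes short of 2-fold in at least 1 library. Cxcl5 was at 1.95 and Ptx3 at 1.32 pooled, and Ptx3 at 0.93 with 3 UMIs and 1.20 with no Timp1 threshold, where library 1 enters, against negative ratios within libraries 2, 3 and 4. The 30 and 54 Prg4 cells of libraries 1 and 4 and the 54 comparison cells of library 2 limit precision.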

Other observations

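Il33, an alarmin released by damaged cells, was at 247, 519, 89 and 298 CPM in the Prg4 cells of libraries 1 to 4 and at 187, 334, 84.9 and 518 CPM in the Dcn Timp1 cells without Prg4. Dio2, which activates thyroid hormone, was at 1.55, 62.8, 56.6 and 14.6 CPM against 2.9, 1.73, 23.8 and 1.73 CPM, and in library 2 its comparison held 2 UMIs, for a ratio of 36.4 with a counting interval of 10.0 to 301. The Dio2 ratio of CPM + 10 missed 2-fold in at least 1 of libraries 2, 3 and 4.

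Cell cycle genes summed to 97.9, 118, 258 and 428 CPM in the Prg4 cells of libraries 1 to 4. Top2a, a topoisomerase of dividing cells, had a UMI in 0, 8, 15 and 9 cells of the 30, 344, 105 and 54. In the cells without Prg4, Top2a was at 0.894, 0, 18.8 and 55.2 CPM against 0, 1.36, 29.4 and 68.3 CPM in the Prg4 cells.

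As a description over cells of 1 library, the summed chemokine list and the list of interleukin 6 family and colony-stimulating factors had Spearman correlations of 0.46, 0.50 and 0.22 in libraries 2, 3 and 4 (344, 105 and 54 cells). The activated and resting fibroblast lists had -0.02, -0.43 and -0.23.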
